A study of Rattus norvegicus with 16 samples.

Results

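Expression of 9 genes for structural proteins of myelin was followed in the prefrontal cortex (PFC) of rats killed straight after acute inescapable footshock (FS). The genes are Mbp, Mog, Mag, Mobp, Cnp, Mal, Cldn11, Opalin and Ermn. They were taken by name, as probe sets whose single gene symbol is on that list, and make up 9 of the 10423 genes tested. Mbp had a second probe set, so that there were 10 probe sets in all, and the one with the highest mean over the 16 arrays stood for the gene. The 8 FS rats went through a session of 40 min at 0.8 mA with 20 min of actual shock, and the 8 control rats stayed in their home cages. All were adult male Sprague-Dawley rats of no stated genetic alteration, and PFC tissue was measured whole, on Affymetrix Rat Gene 1.0 ST arrays. The design does not separate the shocks from the handling and the new surroundings that came with them. Each array is 1 labelled replicate, so the p-values measure the spread between these arrays.

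Myelin is the stack of membrane that oligodendrocytes wrap around axons in the brain, where it speeds conduction of the action potential. Its proteins fall into classes by place. Myelin basic protein (Mbp) and Mobp lie on the inner membrane faces and hold them together in compact myelin, whereas Mal and claudin 11 (Cldn11) are membrane proteins, the first of lipid rafts and the second of the tight junctions between wraps. Mog sits on the outermost surface of the sheath, Mag on the surface that faces the axon, and the enzyme encoded by Cnp keeps cytoplasm-filled channels open within the sheath. Opalin is a membrane protein of mature oligodendrocytes, and ermin (Ermn) is a cytoskeletal protein of the same cells.

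RefSeq promoters (build GRCr8, 250 bases before to 50 after the annotated start) matched 7 of the 9 members. Mog and Ermn were not matched. The windows were searched on both strands for letters known as motifs of oligodendrocyte and stress regulators. The letters CTGGCAC, known as a core site of the myelin regulatory factor Myrf, were in 4 of 7 windows, those of Cnp, Mag, Mal and Opalin, against 4.75% of all 33469 promoters in the table. The SOX monomer ACAAAG, a motif of the lineage factor Sox10 and its relatives, was in 4 of 7, those of Cnp, Mag, Mobp and Opalin, against 18.8% of all promoters. The variant AACAAT was in that of Opalin alone (11.7% of all). The glucocorticoid receptor core letters AGAACA was in 1 of 7, that of Mobp, against 20.7%, and the GC box GGGCGG in 4 of 7, those of Cldn11, Cnp, Mal and Mbp, against 33.1%. The TATA box letters TATAAA were in 0 of 7 (14.2% of all). These matches are a description of letters, and binding was not measured. Shown are the 3 windows that hold both the Myrf and the SOX letters, and that of Mobp, which holds ACAAAG on the minus strand 8 times, once overlapping the glucocorticoid receptor letters. Capitals mark every match to the 6 motifs on either strand, and each window is written 5′ to 3′ in the direction of the gene.
Mag, chr1:95290995-95291294, minus strand: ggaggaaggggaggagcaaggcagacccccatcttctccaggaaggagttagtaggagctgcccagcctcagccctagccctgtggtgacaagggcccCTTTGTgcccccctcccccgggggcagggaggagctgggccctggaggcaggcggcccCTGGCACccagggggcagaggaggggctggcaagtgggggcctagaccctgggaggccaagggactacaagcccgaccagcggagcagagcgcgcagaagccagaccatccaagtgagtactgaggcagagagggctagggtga
Cnp, chr10:86011254-86011553, plus strand: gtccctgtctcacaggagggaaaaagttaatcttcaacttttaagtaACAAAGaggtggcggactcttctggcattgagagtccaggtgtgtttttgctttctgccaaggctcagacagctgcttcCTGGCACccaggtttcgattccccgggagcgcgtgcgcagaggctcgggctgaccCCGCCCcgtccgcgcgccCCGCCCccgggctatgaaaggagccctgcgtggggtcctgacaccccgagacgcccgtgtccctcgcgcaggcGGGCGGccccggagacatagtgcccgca
Opalin, chr1:249858141-249858440, minus strand: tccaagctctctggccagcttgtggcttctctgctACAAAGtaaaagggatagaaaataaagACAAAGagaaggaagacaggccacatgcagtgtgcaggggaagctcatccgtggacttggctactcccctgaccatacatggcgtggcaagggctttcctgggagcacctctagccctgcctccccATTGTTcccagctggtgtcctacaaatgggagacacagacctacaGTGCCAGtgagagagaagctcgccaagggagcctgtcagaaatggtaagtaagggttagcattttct
Mobp, chr8:128746982-128747281, plus strand: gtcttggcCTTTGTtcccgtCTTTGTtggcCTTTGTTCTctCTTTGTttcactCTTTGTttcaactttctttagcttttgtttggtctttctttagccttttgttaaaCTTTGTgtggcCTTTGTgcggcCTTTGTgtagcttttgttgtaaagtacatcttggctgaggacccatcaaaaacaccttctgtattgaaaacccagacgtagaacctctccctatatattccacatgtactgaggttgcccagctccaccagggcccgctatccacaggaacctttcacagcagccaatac

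All 9 members had a higher mean in FS rats than in controls, by 0.26 to 0.42 on the log2 scale (1.20- to 1.34-fold), and none passed the threshold adjusted over all genes. The median difference of the members was 0.40, against -0.02 over the 11352 probe sets tested. A positive difference was found in 42.5% of those. In limma all 9 members had an unadjusted p under 0.05, between 0.00257 and 0.0279, where 3.65% of probe sets had such a p and were higher in FS rats. This count was 3 of 9, with a median difference of 0.27, when a score of striatal marker genes was a covariate. In that fit the limma adjusted p of every member was 0.997. The share of 3.65% belongs to the fit without the covariate. The striatal markers had positive differences as well (median 0.81). Without the covariate, after Benjamini-Hochberg adjustment over all probe sets, the members' adjusted p lay between 0.501 and 0.518 in limma. In that fit 0 of 9 members and 0% of probe sets were called. Exact permutation of the 16 arrays, two-sided over all 12870 assignments, gave unadjusted p-values of 0.00497 to 0.0449 for the members, under 0.05 in 9 of 9, while 3.42% of all probe sets tested had such a p and a higher FS mean. The members vary together from array to array, so these are not 9 independent results. In whole tissue, fewer oligodendrocytes in a sample and less myelin RNA per cell cannot be told apart.

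The control arrays fell apart into low and high ones. Control replicates 2, 3 and 7 were the 3 lowest controls in 9 of 9 members, a pattern shared by 2.97% of probe sets. They were picked after the member values were seen, so the 9 of 9 is a description and no test. Of the 11352 probe sets tested, they were the 3 lowest controls in 337 and the 3 highest in 642. In all 9 members they were below every FS array, for which no share over all probe sets is given. The gap between the highest of these 3 and the next control was 0.23 to 0.61. The other 5 controls lay largely among the FS arrays, with 3 to 5 of them inside the FS range of each member. In 0 of 9 members did the groups separate without overlap, as they did in 0.0617% of probe sets. When these 3 controls were left out, a choice made after their values were seen and therefore given with no test, all 9 members were still higher in FS rats, but the median difference was 0.12 and the range 0.07 to 0.19. The difference between group medians was positive in 9 of 9 members (43.2% of probe sets), with a median of 0.22 and a range of 0.11 to 0.35.

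**Figure D1:**
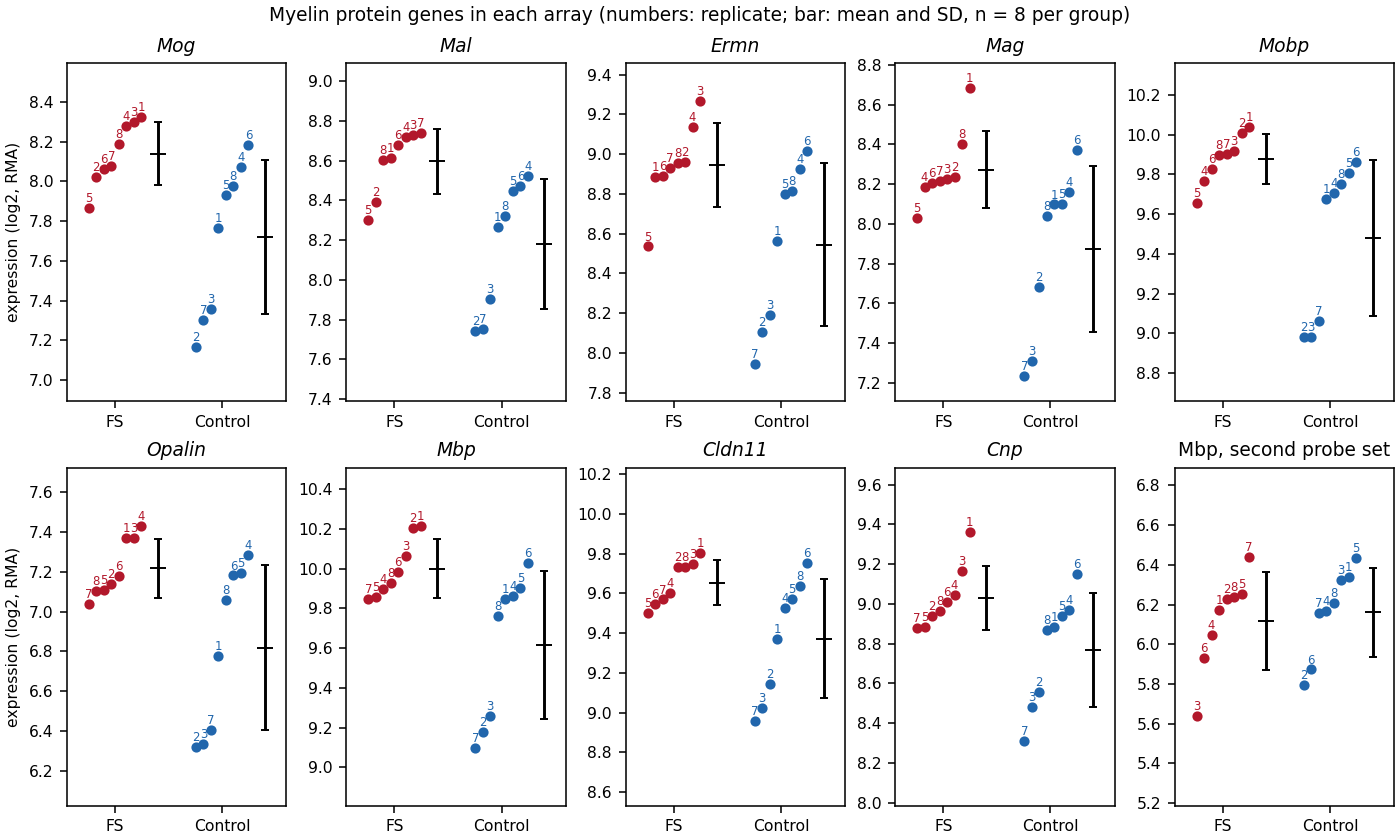
Expression of the 9 members and of the second Mbp probe set in each array, FS rats on the left and control rats on the right. The y axes are log2 RMA values and span the same width in every panel, numbers are replicates and bars are the mean and SD (n = 8 per group). In the 9 members control replicates 2, 3 and 7 sit below every FS array, and the other controls overlap with FS rats.

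Of the proteins of compact myelin, Mbp lay between 9.85 and 10.22 in FS rats with a median of 9.96, and between 9.10 and 10.03 in controls with a median of 9.80. All 8 FS arrays were above the control mean, whereas 5 controls were below the lowest FS array. The difference was 0.38 ± 0.13 (SE, n = 8 per group; exact permutation p = 0.0140, adjusted p = 0.503 in limma). Mobp lay between 9.66 and 10.04 in FS rats (median 9.90) and between 8.98 and 9.86 in controls (median 9.69). Its FS values were the second tightest of the members, with an SD of 0.12 against 0.39 in controls, and the difference was 0.40 ± 0.13 (SE; exact permutation p = 0.00839, adjusted p = 0.503 in limma).

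Mal, which carries membrane proteins and lipids to the sheath, had the smallest p of the members. It lay between 8.30 and 8.74 in FS rats (median 8.65) and between 7.74 and 8.52 in controls (median 8.29). In 6 of 8 FS rats Mal was above the highest control, the largest such count among the members, and the difference was 0.42 ± 0.12 (SE; exact permutation p = 0.00497, adjusted p = 0.501 in limma). Cldn11, the tight junction protein, lay between 9.50 and 9.81 in FS rats (median 9.66) and between 8.96 and 9.75 in controls (median 9.45), and only 1 FS rat was above the highest control. Its difference was 0.28 ± 0.11 (SE; exact permutation p = 0.0275, adjusted p = 0.509 in limma).

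The surface proteins gave differences of like size. Mog lay between 7.87 and 8.32 in FS rats (median 8.13) and between 7.17 and 8.18 in controls (median 7.85), with a difference of 0.42 ± 0.14 (SE; exact permutation p = 0.0124, adjusted p = 0.503 in limma). 4 FS rats were above the highest control and 4 controls below the lowest FS rat. Mag lay between 8.03 and 8.68 in FS rats (median 8.22) and between 7.23 and 8.37 in controls (median 8.07). Its mean difference of 0.40 ± 0.15 (SE; exact permutation p = 0.0255, adjusted p = 0.509 in limma) was larger than its difference of medians, 0.15. FS replicate 1 stood high, at 8.68, and control replicates 2, 3 and 7 low, at 7.68, 7.31 and 7.23.

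Cnp had the smallest difference. It lay between 8.88 and 9.36 in FS rats (median 8.99) and between 8.31 and 9.15 in controls (median 8.88), with a difference of 0.26 ± 0.11 (SE; exact permutation p = 0.0449, adjusted p = 0.518 in limma). Opalin lay between 7.04 and 7.43 in FS rats (median 7.16) and between 6.32 and 7.29 in controls (median 6.92). Control replicate 1, at 6.78, also fell below the FS range here, as it did in Mbp, Mog, Mal and Cldn11. The difference of Opalin was 0.40 ± 0.14 (SE; exact permutation p = 0.0264, adjusted p = 0.509 in limma). Ermn lay between 8.54 and 9.27 in FS rats (median 8.94) and between 7.95 and 9.01 in controls (median 8.68), a difference of 0.40 ± 0.15 (SE; exact permutation p = 0.0283, adjusted p = 0.509 in limma). Ermn was the member in which 1 FS rat, replicate 5, did not exceed the control mean. In the other 8 members all 8 FS rats did, as in 2.23% of probe sets.

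The second probe set of Mbp did not move with the first. It lay between 5.64 and 6.44 in FS rats (median 6.20) and between 5.79 and 6.44 in controls (median 6.19), and the difference was -0.04 ± 0.11 (SE; exact permutation p = 0.710, adjusted p = 0.894 in limma). All 8 controls were inside the FS range. Control replicates 3 and 7, low in all 9 members, were at 6.32 and 6.16 here, while replicate 2 was the lowest control at 5.79. With each gene taken as the mean of its probe sets, the Mbp difference was 0.17. The Mbp gene gives rise to the basic proteins of myelin and, from a start farther upstream, to longer golli proteins. Which transcripts each probe set covers is not given in the annotation used here.

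**Figure D2:**
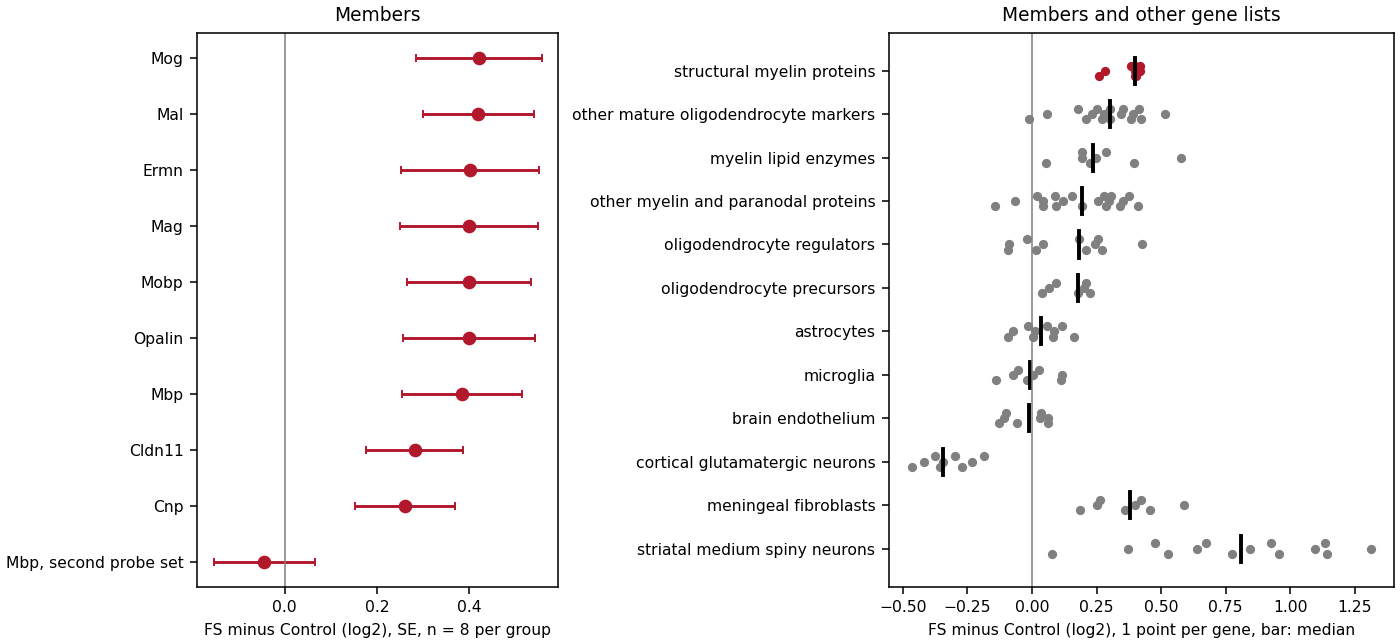
Left, difference between FS and control rats for the members and the second Mbp probe set, on the log2 scale with the SE (n = 8 per group). Right, the same difference for each measured gene of the members and of 11 other lists, 1 point per gene with the median as a bar. The members lie between 0.26 and 0.42, and the second Mbp probe set at -0.04.

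Control rats were spread more widely than FS rats in every member. The SD lay between 0.11 and 0.21 in FS rats and between 0.29 and 0.42 in controls, and the ratio of the control SD to the FS SD was 1.76 to 3.16 with a median of 2.43. Over all probe sets tested the median ratio was 0.91 and the control SD was the larger in 40.2%, against 9 of 9 members. The spread was tested for every probe set on the absolute deviation from the group median, by permutation of the 16 deviations over all assignments. Each group was centred on its own median first, so these p-values are approximate. By this permutation test the spread was wider in controls with an unadjusted p under 0.05 in 3 members, against 0.951% of probe sets. These were Opalin (permutation p = 0.00606), Cldn11 (p = 0.0202) and Mog (p = 0.0477). After adjustment over all probe sets, 0 of 9 members and 0% of probe sets passed (smallest adjusted p of a member 0.954, by the same permutation test). The count of 3 was 8 of 9 when deviations were taken from the group mean in place of the median. The share of 0.951% belongs to deviations from the median, and no share is given for the group mean. By deviation from the median the count became 0 without control replicate 1, 2, 3 or 7, each left out alone. For Opalin the mean absolute deviation was 0.12 in FS rats and 0.36 in controls. The second Mbp probe set had SDs of 0.24 in FS rats and 0.22 in controls.

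**Figure D3:**
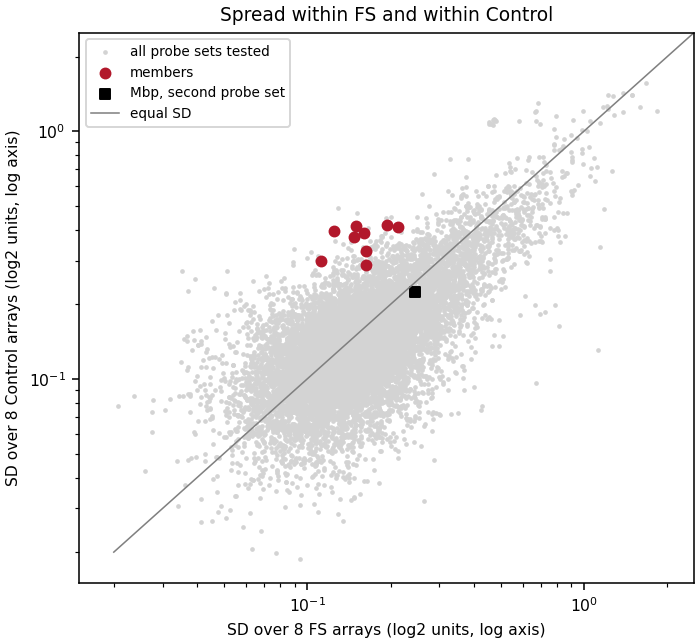
SD over the 8 FS arrays (x axis) against the SD over the 8 control arrays (y axis) for all 11352 probe sets tested, both in log2 units on log axes. The 9 members lie above the line of equal SD, and the second Mbp probe set lies near it.

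Among the FS rats the order of the arrays differed from member to member. FS replicate 1 was the highest in 6 members, Mog, Mag, Mobp, Mbp, Cldn11 and Cnp, whereas Ermn was highest in replicate 3, Opalin in replicate 4 and Mal in replicate 7. FS replicate 5 was the lowest in 6 members and replicate 7 in the other 3, Opalin, Mbp and Cnp. Replicate 7 was thus at the top for Mal, with 8.74, and at the bottom for Mbp, with 9.85. Over the 8 FS rats, Pearson's r was positive in 35 of 36 pairs of members, between -0.138 and 0.835 with a median of 0.544, and Spearman's rho lay between -0.21 and 0.86 with a median of 0.42. By exact permutation 13 pairs had an unadjusted p under 0.05, and 0 passed after adjustment over the 36 pairs for either coefficient (smallest adjusted p = 0.125 for r and 0.157 for rho). The highest r was that of Mobp and Cldn11 (r = 0.835, exact permutation p = 0.00747, adjusted p = 0.125; rho = 0.786, exact permutation p = 0.0279, adjusted p = 0.168), and the pair below 0 was Mbp and Mal. Without the 2 FS arrays farthest from the median of the first gene, r was positive in 26 pairs, and it was 0.64 for Mobp and Cldn11. No correlation is given over the controls, which fell into 2 clusters of 3 and 5 arrays.

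In the controls, replicates 2, 3 and 7 stayed below the other 5 arrays in every member, while the order within these sets varied. Control replicate 6 was the highest control in 7 members and replicate 4 in Mal and Opalin. Replicate 7 was the lowest in 5 members, Ermn, Mag, Mbp, Cldn11 and Cnp, and replicate 2 in the other 4. Averaged over the 9 members as the deviation from each gene's mean over the 16 arrays, controls 2, 3 and 7 stood at -0.58, -0.58 and -0.67 on the log2 scale, and the other 5 between -0.09 and 0.22. The 8 FS rats stood between -0.03 and 0.36.

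**Figure D4:**
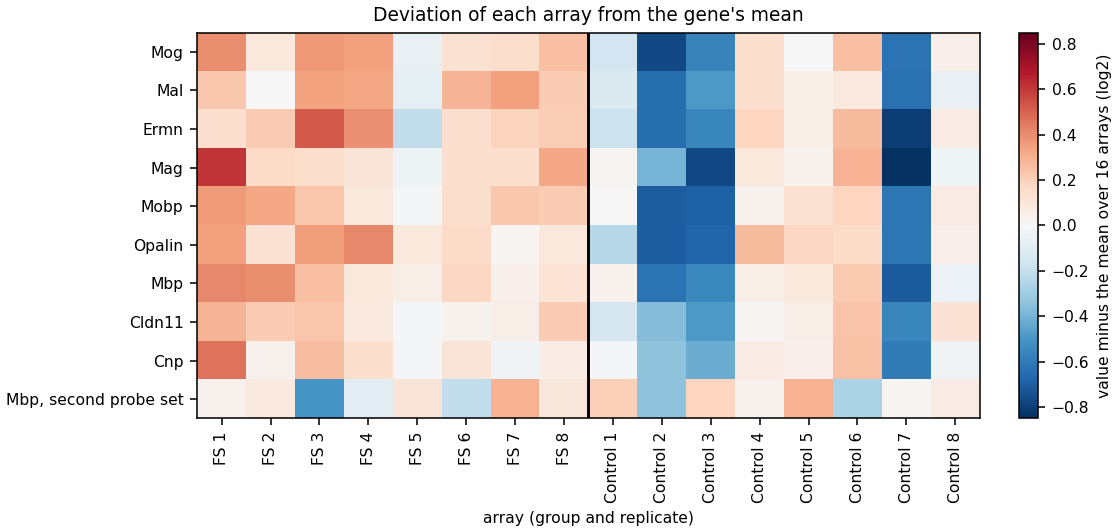
Deviation of each array from the gene's mean over the 16 arrays, on the log2 scale, for the 9 members and the second Mbp probe set, with FS arrays left of the line and control arrays right of it. Control replicates 2, 3 and 7 are low in every member, and FS replicate 1 is high in most.

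The 10 genes outside the list whose values followed the members most closely were mostly genes of oligodendrocytes. Likeness was the correlation, over the 16 arrays, of a gene's deviation from its own group mean with the average of that deviation over the members. The points share the 3 low controls, and over the 8 FS rats alone r was between 0.484 and 0.944 for the same 10 genes. Transferrin (Tf, r = 0.954), Ndrg1 (r = 0.954), the sphingosine-1-phosphate receptor gene S1pr5 (r = 0.946), the phosphodiesterase gene Pde8a (r = 0.938) and Tmem88b (r = 0.931) came first. They were followed by the lysophosphatidic acid receptor gene Lpar1, Serinc5, the ceramide synthase gene Cers2, Myrf and the fatty acid elongase gene Elovl1, with r between 0.910 and 0.917. Of these 10, 7 were on the lists of oligodendrocyte or myelin genes used here and S1pr5, Pde8a and Serinc5 were not. Their differences between FS rats and controls were 0.19 to 0.43, none with an adjusted p under 0.05 in limma. The members themselves had r between 0.915 and 0.972 with the average of which they are part. The second Mbp probe set had r = -0.03.

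Other genes of the myelin sheath and of oligodendrocytes had a higher mean in FS rats in most cases. The medians of their lists, 0.18 to 0.30, were below that of the members, but single genes such as Ugt8 and Klk6 exceeded every member. Of 19 measured genes for other myelin and paranodal proteins, 17 had a positive difference, with a median of 0.19. In limma 11 were higher with an unadjusted p under 0.05, and 0 were lower. Over all probe sets tested, 42.5% had a positive difference and 3.65% were higher with such a p. The largest differences were those of Hapln2, a link protein of the nodes of Ranvier (0.41 ± 0.16 SE), Gpr37 (0.38 ± 0.10) and the tetraspanin genes Tspan2 (0.35 ± 0.11) and Cd9 (0.34 ± 0.08). The 2 genes of this list with a negative difference were Tppp (-0.14 ± 0.08) and Cntnap1 (-0.07 ± 0.08). Of 8 genes for enzymes of myelin lipids, 8 were positive (median 0.24), 6 of them with an unadjusted p under 0.05. They were led by Ugt8, which makes galactocerebroside (0.58 ± 0.13), and the fatty acid hydroxylase gene Fa2h (0.39 ± 0.14), followed by Elovl1 (0.29 ± 0.11) and the aspartoacylase gene Aspa (0.25 ± 0.09).

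The regulators of the lineage did not all point one way. Of 11 measured, 8 were positive and 3 negative (median 0.18), and 4 had an unadjusted p under 0.05 in limma, all higher: Myrf, the factor that switches on myelin genes (0.43 ± 0.11 SE), Erbb3 (0.27 ± 0.13), Olig2 (0.26 ± 0.08) and Olig1 (0.24 ± 0.11). Sox10 differed by 0.21 ± 0.11. Further markers of mature oligodendrocytes were positive in 16 of 17 (median 0.30, 12 with an unadjusted p under 0.05), with Klk6 (0.51 ± 0.14), Tf (0.42 ± 0.14), Lpar1 (0.41 ± 0.13) and Evi2a (0.39 ± 0.11) at the top. Markers of oligodendrocyte precursors were positive in 7 of 7 (median 0.18), with Enpp6 (0.22 ± 0.15) at the top, and only Pdgfra, the growth factor receptor of these cells (0.21 ± 0.09), had an unadjusted p under 0.05. The shares over all probe sets tested were 42.5% positive and 3.65% higher with an unadjusted p under 0.05 in limma. None of the genes on these lists passed the adjusted threshold in limma. Control replicates 2, 3 and 7 were the 3 lowest controls in 7 of 8 lipid enzymes, 13 of 17 mature markers, 12 of 19 other myelin proteins, 5 of 11 regulators and 1 of 7 precursor genes. Of all probe sets tested, 2.97% had this pattern.

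The tissue label was checked against markers. Of 11 genes of cortical glutamatergic neurons 9 were measured, and their mean level lay between 6.82 and 8.29 in FS rats and between 7.00 and 8.35 in controls. Of 6 genes that mark Schwann cells, the myelinating cells of peripheral nerve, Prx, Pmp2, Ngfr and Gfra3 had means of 3.05, 2.65, 3.97 and 3.17, below the filter, and only Drp2 was tested (-0.19 ± 0.15 SE).

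Markers of striatal medium spiny neurons, a cell type of a neighbouring region, moved in the same direction as the members. All 14 measured genes of 18 listed were positive, between 0.08 and 1.31 with a median of 0.81, and 3 had an unadjusted p under 0.05 in limma. Over all probe sets tested, 42.5% were positive and 3.65% were higher with such a p. Of the 16 on the array, 14 were above the filter, and the mean level of these lay between 5.83 and 8.14 in FS rats and between 5.88 and 8.43 in controls. The largest difference was that of the dopamine receptor gene Drd2 (1.31 ± 0.63 SE). The 2 genes with the highest mean were Foxp1, which had the smallest difference of the list (0.08 ± 0.08), and Penk (0.84 ± 0.40). Control replicates 2, 3 and 7, with the lowest members, had striatal deviations of -0.89, -0.90 and -0.86. Control replicates 4 and 8 and FS replicate 7, at -0.81, -0.90 and -0.96, had member deviations of 0.11, 0.02 and 0.13. FS replicate 5 and control replicate 5, both at -0.62, had member deviations of -0.03 and 0.07. FS replicates 2, 3, 4, 6 and 8, at 0.63 to 1.35, had member deviations of 0.15 to 0.30. FS replicate 1 and control replicate 1, at -0.03 and 0.22, had member deviations of 0.36 and -0.09. Control replicate 6, with the highest striatal deviation of 1.65, had a member deviation of 0.22. Without control replicate 6 and FS replicate 3, which have the highest striatal deviation of their groups, the median member difference was 0.43. Control replicate 6 also had the highest member deviation of the controls. Leaving these arrays out did not make the striatal levels of the groups alike. With the striatal deviation as a covariate all 9 members stayed positive, with a median of 0.27 and a range of 0.16 to 0.33. In limma 3 of 9 then had an unadjusted p under 0.05, and the adjusted p was 0.997 in every member. The share of 3.65% belongs to the fit without this covariate, and no share is given for the fit with it. What part these cells have in the member differences was not tested beyond this fit. Markers of meningeal fibroblasts were also positive, in 8 of 8 genes (median 0.38, 0 with an unadjusted p under 0.05), with a mean level between 4.96 and 7.12 in FS rats and between 5.02 and 6.17 in controls, and control replicates 2, 3 and 7 were the 3 lowest controls in 0 of them. Their part in the result was not tested. Cortical glutamatergic genes were lower in FS rats in 9 of 9 (median -0.34, 0 with an unadjusted p under 0.05). Genes of astrocytes, microglia and brain endothelium had medians of 0.03, -0.01 and -0.01, and 0 genes of these 3 lists had an unadjusted p under 0.05 in limma.

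**Figure D5:**
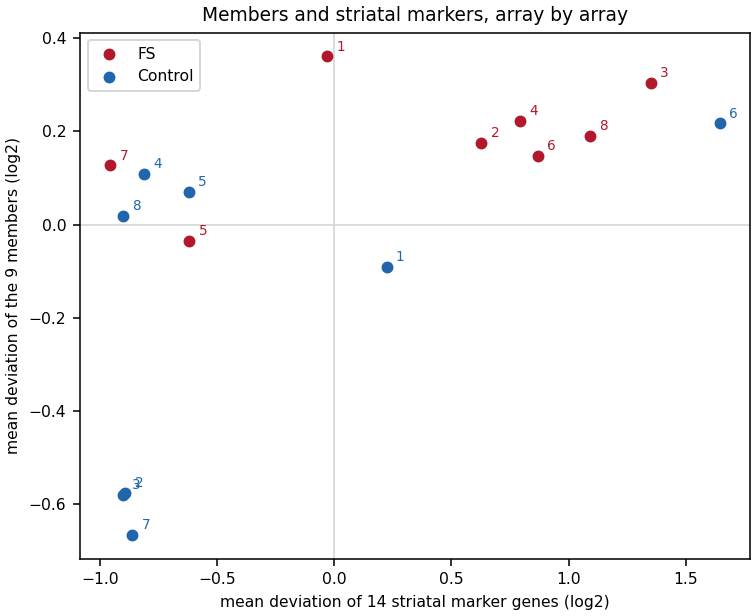
Mean deviation of 14 striatal marker genes (x axis) against that of the 9 members (y axis) in each array, in log2 units from each gene's mean over the 16 arrays, with replicate numbers. Controls 2, 3 and 7 lie at the bottom left, with controls 4 and 8 and FS replicate 7 above them at like striatal values. FS replicates 2, 3, 4, 6 and 8 and control replicate 6 lie at the upper right.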

How the data were processed

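RNA of 16 PFC samples was hybridised to 1 array each. The authors used RMA, as run in the package oligo 1.58.0, and the deposited values are on a log2 scale, where a difference of 1 is a doubling. Because RMA makes the arrays' distributions alike, a shift shared by most genes cannot be seen. The table held 29214 probe sets, the array medians lay between 4.05 and 4.15, and arrays correlated at 0.981 to 0.997, with no 2 identical. Precision depends on how many arrays there are and on the spread of each gene. The median SE of a difference was 0.07 over all probe sets tested, and the members' SEs were 0.11 to 0.15.

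Names came from the platform annotation: 18644 probe sets had 1 symbol, 962 several and 9608 none in the table used here. Probe sets with 1 symbol and a mean above 4 were tested, 11352 in all, which is how the authors' filter was read. Gene IDs of all 10 member probe sets matched the RefSeq table. FS and control arrays were compared across all genes with limma (version 3.58.1 in R 4.3.3) in a model with group alone, with eBayes moderation as in the authors' methods and p-values adjusted by Benjamini-Hochberg at 0.05. Single genes were tested by exact two-sided permutation. Spreads were tested by two-sided permutation of deviations over all assignments, which is approximate because each group was centred first. The limma fit and the permutation test of spreads were checked on simulated data. No dates or batches are given in the sources used here.

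The members and lists were chosen with earlier results of these data known, and the study had looked at glial gene sets on these arrays, so their direction is not independent evidence. By rule, named genes were the members, up to 4 genes with the largest absolute difference per myelin or oligodendrocyte list, the 10 most alike in pattern, and the 2 striatal genes with the highest mean. Tppp, Cntnap1, Sox10, Pdgfra, Drd2 and Drp2 were named after their values were seen. The alternatives were other filters, centring, probe set choices and variance models, array weights, the replicate number as a block, a striatal covariate and arrays left out. Leaving out 3 controls together and comparing group medians were added after seeing the data.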

Additional observations from a re-analysis of the deposited data

How the results depend on the processing

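Under 29 alternatives all 9 members kept a positive difference (0 of 261 values reversed), and 0 members passed the adjusted threshold in each of those that allowed a test. The number with an unadjusted p under 0.05 was 9 of 9 in limma, 3 with the striatal markers as a covariate, 8 with each gene as the mean of its probe sets, and 8 to 9 with each array left out, when the median difference ran from 0.32 without control replicate 7 to 0.45 without control replicate 6. Shares over all probe sets are given for the fit with group alone and not for these alternatives. With array weights the median was 0.47 and with arrays centred on their medians 0.39. With the replicate number as a block the median difference stayed at 0.40, 9 members had an unadjusted p under 0.05 and 0 passed after adjustment (adjusted p 0.442 to 0.450 in limma). Deviations of same-numbered arrays correlated between -0.31 and 0.49, above 0.1 in 4 of 8 pairs. In 2 pairs the control that matched the FS array best had the same number. The sources used here state no pairing, and this check does not settle it. The number of members with wider controls at an unadjusted p under 0.05 was 3 by deviation from the group median and 8 by deviation from the group mean. It ran from 0 to 4 with each array left out. For deviations from the group mean no share over all probe sets is given. After adjustment the number was 0 under all of these settings. The cause of these shifts was not tested.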

Other observations

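Ppp1r14a, an inhibitor of myosin phosphatase that marks mature oligodendrocytes and is also made by smooth muscle, was singled out after its values were seen. It lay between 5.89 and 6.07 in FS rats (median 5.98) and between 5.23 and 5.86 in controls (median 5.75), so that the groups did not overlap, as in 7 of 11352 probe sets (0.0617%). The difference was 0.35 ± 0.09 (SE, n = 8 per group), higher in 8 of 8 FS rats, with an exact permutation p of 0.000155, the smallest that these assignments can give, and an adjusted p of 0.495 in limma. Its SD was 0.06 in FS rats and 0.25 in controls. Unlike in the members, control replicates 2, 3 and 7 were not the 3 lowest controls.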
